A study of Homo sapiens with 22 samples.

Results

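The replication-dependent histone genes, which supply the histone proteins for newly copied DNA, were followed through the N-MYC and WDR5 peaks of 2 neuroblastoma cell lines. They were taken by name from protein-coding genes of GENCODE 44 on hg19: names beginning H2AC, H2BC, H3C or H4C and a number, H1-1 to H1-6, and the older HIST names. This gave 67 of 20149 genes, made up of 6 H1, 17 H2A, 17 H2B, 13 H3 and 14 H4 genes. The annotation kept 2 of them under older names, HIST2H2AA3 (now H2AC18) and HIST1H4B (now H4C2). Of the 67 genes, 52 lie on chromosome 6, in blocks at 25.73 to 26.29 Mb (31 genes), 27.1 to 27.11 Mb (5 genes) and 27.78 to 27.86 Mb (16 genes). On chromosome 1, 11 genes lie at 149.78 to 149.86 Mb and 2 at 228.65 Mb. The remaining 2 stand alone, H4C16 on chromosome 12 and H2BC12L on chromosome 21.

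CHP-134 and IMR-32 are N-MYC amplified neuroblastoma lines. CHP-134 cells received DMSO or a compound for 4 h, with 3 libraries for each antibody and treatment, and IMR-32 cells were untreated, with 2 libraries for each antibody. The DMSO concentration is 0.0005% in one label field and 0.005% in another. The labels name the compound in several ways, so it is called the compound here. N-MYC was precipitated with a custom serum and WDR5 with an antibody against it, and 3 ChIPs were pooled into each library. The IgG samples were not analysed here, and each line is a single line, so a difference between them is a difference between these lines only.

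Replication-dependent histone genes are short, mostly lack introns, and end in a stem-loop in place of a poly(A) tail. They are switched on together in S phase, when NPAT, the target of cyclin E and CDK2, assembles at the clusters. H2A and H2B genes often lie head to head around a shared promoter, and the H2B promoter carries an octamer element read by OCT-1. N-MYC is a transcription factor that binds E-boxes (CACGTG) as a dimer with MAX, and WDR5 is a WD40-repeat scaffold of histone methyltransferase complexes that also binds MYC proteins.

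The sequences at 4 of the 5 sites that carry the binding in DMSO or IMR-32 are shown first. The fifth, at H2BC13 and H2AC13, is left out because its window runs into a UTR. Each is 151 bases of the GRCh37 plus strand around the median summit of a site, with CACGTG in capitals where present. The site gave the strongest N-MYC peak in at least 2 DMSO libraries or both IMR-32 libraries. The median is over all lists with their strongest peak there, which at H2AC25 and H2BC26 include 1 WDR5 list.
H2AC25 and H2BC26, chr1:228645215-228645365: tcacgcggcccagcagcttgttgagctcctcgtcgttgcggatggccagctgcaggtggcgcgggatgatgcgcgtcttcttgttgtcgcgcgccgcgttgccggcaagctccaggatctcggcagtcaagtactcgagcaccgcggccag
HIST1H4B, chr6:26027280-26027430: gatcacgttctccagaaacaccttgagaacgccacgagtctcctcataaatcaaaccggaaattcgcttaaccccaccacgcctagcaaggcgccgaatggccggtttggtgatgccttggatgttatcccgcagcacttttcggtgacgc
H2BC12 and H2AC12, chr6:27113778-27113928: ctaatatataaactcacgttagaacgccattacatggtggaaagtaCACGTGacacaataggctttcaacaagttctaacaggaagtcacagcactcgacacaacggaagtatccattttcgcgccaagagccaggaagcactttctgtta
H2AC15 and H2BC15, chr6:27805200-27805350: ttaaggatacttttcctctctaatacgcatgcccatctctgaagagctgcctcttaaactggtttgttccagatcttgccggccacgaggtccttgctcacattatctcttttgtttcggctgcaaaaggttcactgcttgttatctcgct

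The windows at H2AC25 and HIST1H4B lie inside the single coding exon of these genes. Those at H2BC12 and H2AC15 lie outside annotated genes, past the 3′ end of the named gene. Of the 4 windows, 1 held an E-box, and its GC content was 43% against 66.2% for the window inside H2AC25.

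N-MYC peaks were called at a smaller share of replication-dependent histone genes than of all protein-coding genes, and no WDR5 peak recurred at any of them. A gene is called bound here when at least 2 libraries of a group had a peak with any base within 1000 bp of one of its TSSs. In CHP-134 cells treated with DMSO, N-MYC bound 9 of the 67 genes (13.4%), against 37.6% of all genes tested. With the compound it bound 9 of 67, against 29.8%, and in IMR-32 6 of 67 (8.96%), against 15.2%. WDR5 bound 0 of 67 in each of the 3 groups, against 8.24% of all genes in DMSO, 1.29% with the compound and 4.74% in IMR-32. No member had both proteins, against 7.5%, 1.17% and 2.55% of all genes. A total of 33 members had no peak of either protein in any of the 16 lists, against 46.3% of all genes. With a peak in a single library as the criterion, N-MYC counts were 19, 20 and 12 members in DMSO, compound and IMR-32, against 48.3%, 42.2% and 28.6% of all genes. WDR5 counts were then 7, 8 and 3, against 21.5%, 16.3% and 8.86%, and counts of both proteins 3, 5 and 0, against 20.1%, 13.9% and 6.44%. Where peaks of at least 2 libraries also had to overlap, an alternative added after the data were seen, N-MYC again bound 9, 9 and 6 members, against 37.2%, 29.2% and 14.9% of all genes. WDR5 again bound 0, against 7.81%, 1.18% and 4.66%. A gene without a peak is one where none passed the q-value limit of the lists, and binding below it cannot be seen here.

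**Figure D1:**
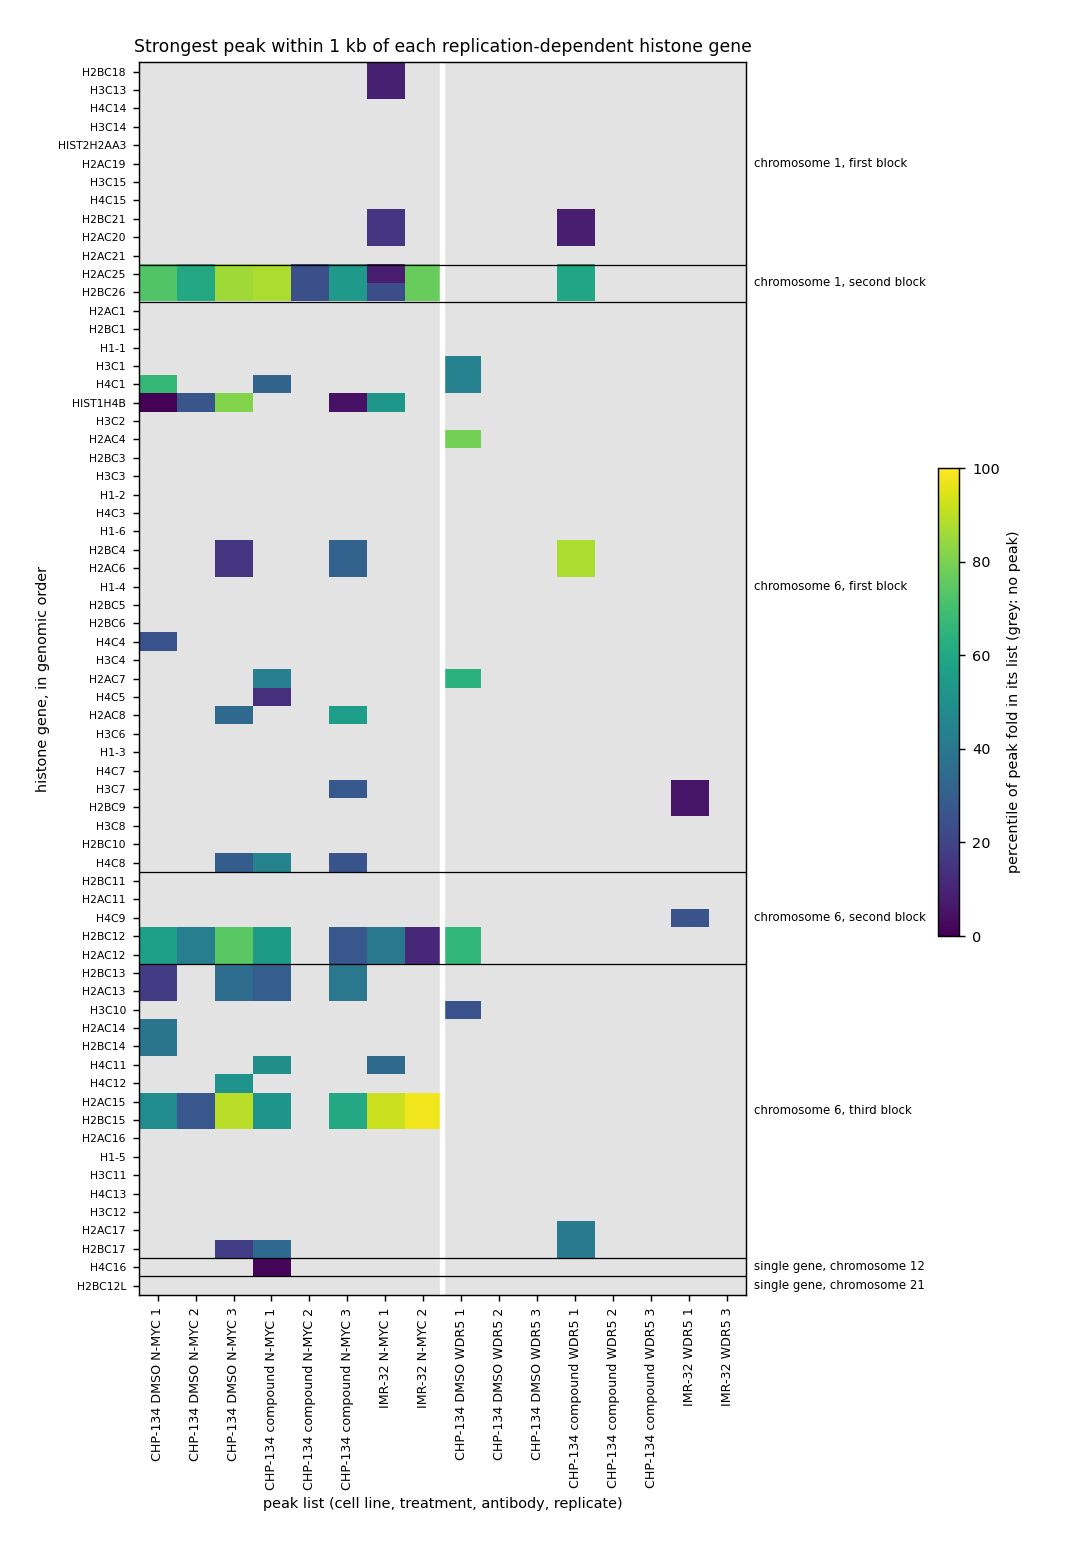
Percentile of the fold of the strongest peak within 1 kb of each of 67 replication-dependent histone genes (rows, in genomic order, lines between blocks) in each of 16 peak lists (columns). Colour gives the percentile from 0 to 100 and grey means no peak; 33 rows are grey throughout, and every WDR5 peak is in a replicate 1 list.

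The lists differ in length. N-MYC lists held between 2964 (compound replicate 2) and 15286 peaks (DMSO replicate 1), and the other 6 between 5242 and 12313. WDR5 lists held 15 and 401 peaks in compound replicates 2 and 3, 5973 in compound replicate 1, 4891 in DMSO replicate 1, and between 1258 and 1758 in the other 4. Compound replicate 2 held 2 members with an N-MYC peak, and compound replicates 1 and 3 held 15 and 14. Every WDR5 peak at a member came from the replicate 1 library of its group. When each N-MYC list was reduced to its strongest 2964 peaks, 0 members were bound in DMSO, 2 with the compound and 2 in IMR-32, against 10.9%, 10.2% and 7.45% of all genes.

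Most bound members were H2A and H2B genes in pairs. The 67 genes hold 10 head-to-head H2A and H2B pairs, whose TSSs lie between 194 and 251 bp apart, so that both genes of a pair often share a peak. Of the 20 genes in pairs, 8 (40%) were bound by N-MYC in DMSO, 8 (40%) with the compound and 6 (30%) in IMR-32, beside 37.6%, 29.8% and 15.2% of all genes. Of the other 47 members, 1 (2.13%) was bound in DMSO, 1 with the compound and 0 in IMR-32. By histone, 4 of 17 H2A, 4 of 17 H2B and 1 of 14 H4 genes were bound in DMSO. None of the 13 H3 genes, which encode the histone that carries the H3K4 mark, and none of the 6 linker histone H1 genes was bound in any group, and no H1 gene had a peak in any list.

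By block, N-MYC in DMSO bound 2 of 2 genes at 228.65 Mb and 0 of 11 at 149.78 Mb of chromosome 1. On chromosome 6 it bound 1 of 31 genes in the first block, 2 of 5 in the second and 4 of 16 in the third. The 7 other protein-coding genes with a TSS inside the first chromosome 6 block, among them HFE, a regulator of iron uptake, and TRIM38, were bound by neither protein in any group. BOLA1, the 1 other protein-coding gene with a TSS inside the 149.78 Mb block of chromosome 1, was bound by N-MYC in all 3 groups. WDR5 bound it in DMSO and IMR-32. No DMSO list had a peak of either protein in this block or within 1 kb of it. The DMSO peaks of BOLA1 therefore lay at a TSS outside the block. Its percentiles in DMSO were 84, 97 and 62.9 for N-MYC and 96.5, 92.7 and 88.7 for WDR5.

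**Figure D2:**
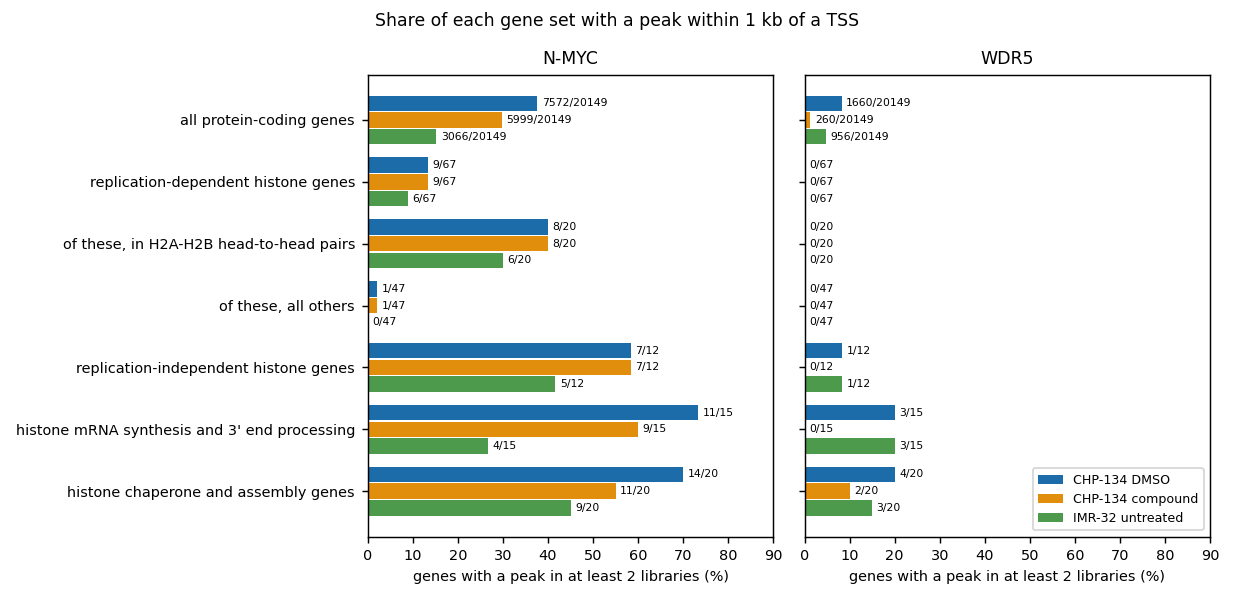
Percent of genes (horizontal axis) with an N-MYC (left) or WDR5 (right) peak in at least 2 libraries, for all genes, the 67 members, members in and out of head-to-head pairs, and 3 lists of related genes, in 3 groups (colours); numbers are genes bound of genes in the set. Members in pairs stood at 40% in DMSO and the other members at 2.13%.

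Values are given from here as percentiles: the rank of a peak's fold, the authors' ratio over local background, within its own list, where 100 is the strongest peak. Over members with an N-MYC peak the median percentile was 47.4 ± 4.25 in DMSO (SD, n = 3 libraries), 34.7 ± 10 with the compound (n = 3) and 53.2 ± 33.6 in IMR-32 (n = 2). Over all genes with a peak, the median lay between 50.6 and 60 in the 8 N-MYC lists. The member median was below that of all genes in 7 of these 8 lists and above it in IMR-32 replicate 2 (76.9 against 54.2, over 6 members). A peak shared by a pair enters these medians for both genes. The 6 members of IMR-32 replicate 2 rest on 3 distinct peaks, and the 2 members of compound replicate 2 on 1.

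H2AC25 and H2BC26, the pair on chromosome 1 at 228.65 Mb, were the members with an N-MYC peak in all 8 lists. The percentiles of their shared peak were 72.8, 60.2 and 85.6 in DMSO replicates 1 to 3 and 87.8, 24.3 and 54.2 with the compound. In IMR-32 H2AC25 had 7.62 and 76.9, and H2BC26 had a separate stronger peak in replicate 1, at 24.2. DMSO libraries were all above the middle of their lists, and both other groups spread from low to high. The mean difference of compound minus DMSO was -17.4 percentile points (p = 0.5 in a two-sided exact permutation test without pairing). In this test 3 against 3 libraries cannot go below 0.1. The summits of H2AC25 in the 8 lists lay between 240 and 343 bp downstream of its TSS, inside its exon.

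H2BC12 and H2AC12, a pair in the second block of chromosome 6, had an N-MYC peak in 7 of 8 lists. Their percentiles were 56.8, 42.8 and 74.4 in DMSO. With the compound they were 54.4 in replicate 1 and 27.2 in replicate 3, with no peak in replicate 2, and in IMR-32 they were 40.2 and 11.4. Both IMR-32 libraries lay below all 3 DMSO libraries, while compound and DMSO libraries overlapped. With no peak counted as 0, the means were 58 ± 15.8 in DMSO (n = 3), 27.2 ± 27.2 with the compound (n = 3) and 25.8 ± 20.4 in IMR-32 (n = 2). Neither difference from DMSO passed the exact permutation test without pairing (p = 0.2 for both, smallest p 0.1). These percentiles belong to 2 sites, since only the strongest peak of a list is ranked. The peaks of DMSO replicate 1 and compound replicate 3 lay inside H2AC12, and the other 5 lay past the 3′ end of H2BC12 or at its last base, with summits 494 to 833 bp downstream of its TSS.

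H2AC15 and H2BC15, a pair in the third block of chromosome 6, carried the strongest peak of any member. Its percentiles were 92.1 and 98 in IMR-32, where it ranked 653 of 8286 and 105 of 5242 by fold. In DMSO they were 48.4, 27.2 and 89.6, and with the compound 51.9 and 60.5, with no peak in replicate 2. Both IMR-32 libraries lay above every DMSO library. The means were 95.1 ± 4.15 (n = 2) and 55.1 ± 31.7 (n = 3), a difference of 40 percentile points that did not pass the exact permutation test (p = 0.2, smallest p 0.1). In DMSO replicates 2 and 3, compound replicate 1 and both IMR-32 libraries, the summit lay 852 to 914 bp downstream of the H2AC15 TSS, past the end of the gene. In DMSO replicate 1 it lay inside H2AC15 and in compound replicate 3 inside H2BC15.

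H2BC13 and H2AC13 had percentiles of 17.2 and 35.6 in DMSO replicates 1 and 3 and of 29.7 and 39.8 in compound replicates 1 and 3. They had no peak in replicate 2 of either group or in IMR-32. Compound and DMSO libraries overlapped (exact permutation test without pairing, p = 0.8).

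HIST1H4B, an H4 gene of the first block, was the only bound member outside the pairs in DMSO. Its percentiles there were 0.494, 26.7 and 81, spread over nearly the whole list. With the compound only replicate 3 had a peak, at 4.69, and in IMR-32 only replicate 1, at 53. The mean fell from 36.1 ± 41.1 to 1.56 ± 2.71 percentile points (n = 3 each) and the libraries overlapped (exact permutation test without pairing, p = 0.2). By replicate number it was lower with the compound in all 3 pairs. In the same block H4C1 and H2AC8 each had an N-MYC peak in 1 DMSO library, at 66.4 in replicate 1 and 34.1 in replicate 3. H4C8, named because it was bound with the compound only, had 29.5 in DMSO replicate 3 and 44.2 and 25.9 in compound replicates 1 and 3. Of the lone genes, H4C16 had 1 N-MYC peak, at 1.51 in compound replicate 1, and H2BC12L had none.

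**Figure D3:**
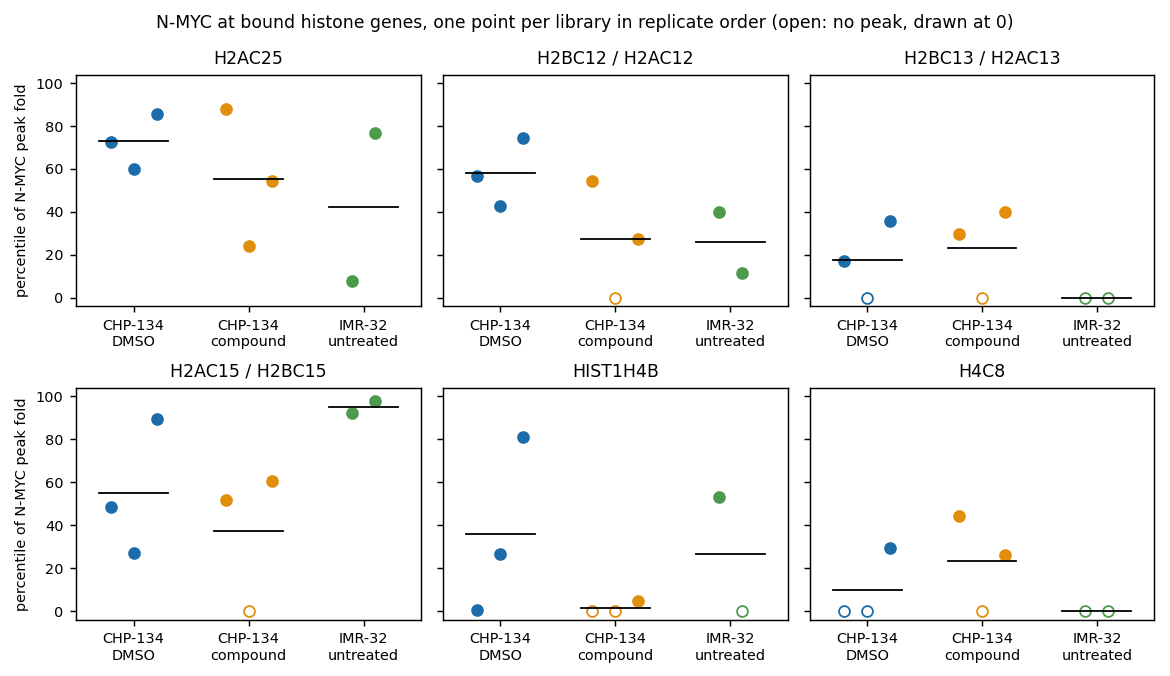
N-MYC percentile (vertical axis) at 6 members or pairs in CHP-134 with DMSO, CHP-134 with the compound and untreated IMR-32. Points are libraries in replicate order, open points at 0 have no peak, and lines are means; H2AC15 and H2BC15 stood at 92.1 and 98 in IMR-32.

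No member separated the compound from DMSO, and few could. The N-MYC percentile was lower in every compound library than in every DMSO library at 0 of 67 members, against 2.82% of all genes, and higher at 0, against 0% of all genes. Being lower needed a peak in all 3 DMSO libraries, as at 7 members and 5348 genes, of which 0 and 568 were lower. Being higher needed one in all 3 compound libraries, as at 2 members and 2135 genes. With so few members these counts of 0 do not set the members apart from other genes. Bound in DMSO but not with the compound was 1 member, HIST1H4B, against 9.06% of all genes, and the reverse held for 1, H4C8, against 1.25%. Same-numbered DMSO and compound N-MYC libraries deviated together, and with the libraries paired by replicate number the percentile was lower with the compound in all 3 pairs at 3 members (H2BC12, H2AC12 and HIST1H4B), against 10.5% of all genes, and higher at 0, against 0.159%. Here too only the 7 members and 5348 genes with a peak in all 3 DMSO libraries could be lower, and 3 and 2110 of them were. These 3 members lie at 2 places, and each is also without a peak in the short replicate 2 list of the compound. Its part in the count was not tested.

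WDR5 gave no such members in either direction, against 2.52% of all genes lower and 0.00496% higher. Paired by number, WDR5 was lower at 0 members, against 3.09% of all genes, and higher at 0, against 0.0149%. These counts of 0 were fixed in advance and say nothing about a change. No member had a WDR5 peak in replicate 2 or 3 of either group, and no peak counted as 0. With 0 members bound, none was gained or lost with the compound, against 7.24% of all genes bound in DMSO only and 0.288% bound with the compound only. The WDR5 peaks in DMSO replicate 1 were at H2AC4 (percentile 79), H2BC12 and H2AC12 (66.3), H2AC7 (64), H3C1 and H4C1 (44.3) and H3C10 (25). In compound replicate 1 they were at H2BC4 and H2AC6 (87.6), H2AC25 and H2BC26 (59.3), H2AC17 and H2BC17 (40.8), and H2BC21 and H2AC20 (8.3). In IMR-32 replicate 1, H4C9 stood at 25.5, and H3C7 and H2BC9 at 5.58. These genes are named because each had a WDR5 peak, and with 1 library each none of them was bound.

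Between the lines, N-MYC was lower in both IMR-32 libraries than in every DMSO library of CHP-134 at 2 members (H2BC12 and H2AC12), against 12.6% of all genes. It was higher at 2 (H2AC15 and H2BC15), against 1.49%. Each count is 1 pair of genes with the same percentiles, and in each the DMSO replicate 1 peak lay at another site than the other peaks compared. Only the 7 members and 5348 genes with a peak in all 3 DMSO libraries could be lower, and 2 and 2542 of them were. Only the 6 members and 3066 genes with a peak in both IMR-32 libraries could be higher, and 2 and 301 of them were. Bound in CHP-134 with DMSO but not in IMR-32 were 3 members, HIST1H4B, H2BC13 and H2AC13, against 23.1% of all genes, and the reverse held for 0, against 0.7%. WDR5 was lower in IMR-32 in every library at 0 members, against 1.77% of all genes, and higher at 0, against 1.23%. No other count was possible, since no member had a WDR5 peak in DMSO replicates 2 and 3 or in IMR-32 replicate 3. With 0 members bound, WDR5 was bound in CHP-134 alone at 0, against 4.84%, and in IMR-32 alone at 0, against 1.35%. N-MYC bound 6 members in all 3 groups, the pairs H2AC25 and H2BC26, H2BC12 and H2AC12, and H2AC15 and H2BC15, against 13.5% of all genes. CHP-134 was read as single 75-base reads and IMR-32 as paired 150-base reads, so line and read type cannot be told apart.

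Counted gene by gene, N-MYC summits at members lay further from the gene's own TSS than those over all genes with a peak. In the DMSO lists the median distance from the summit of the strongest peak to the nearest TSS of the same gene was 473, 754 and 514 bp. These medians are over 13, 7 and 15 members. Over all genes with a peak it was 155, 162 and 154 bp. In IMR-32 it was 829.5 and 621 bp over 12 and 6 members, against 138 and 133.5 bp. In all 8 N-MYC lists the member median was the larger. A peak shared by a pair counts for both genes, each with its own distance, which raises the member values. In DMSO replicate 3 the summit 514 bp from the H2BC26 TSS lay 284 bp from the H2AC25 TSS. Medians with each shared peak counted once, at its nearer gene, were not computed. Of the 54 distinct N-MYC peaks that gave the members their values, 27 had the summit inside a member gene, 20 past the 3′ end of one, 7 upstream of one, and 0 between the starts of a pair. Of the 11 WDR5 peaks, 7 were inside a member gene, 3 upstream and 1 between the starts of a pair, H2AC17 and H2BC17. For these counts a gene ended with its shortest annotated first exon at the TSS, and some longer transcripts reach further. The summits counted as past the 3′ end of H2BC26 and H4C16, for example, lay in an annotated exon and an annotated intron of these genes. Because members are short, with a median first exon of 487 bp, a summit past the 3′ end can still lie within 1 kb of the TSS.

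**Figure D4:**
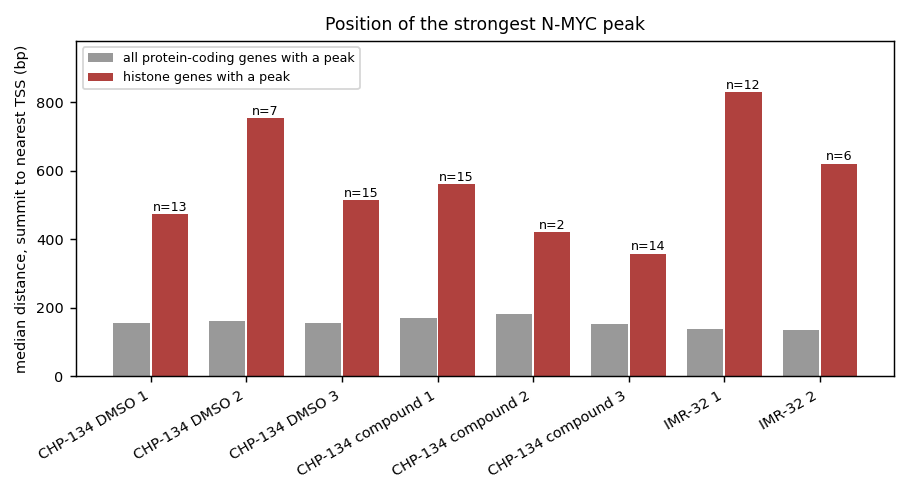
Median distance from the N-MYC summit to the nearest TSS of the same gene in bp (vertical axis) in each of 8 N-MYC lists (horizontal axis), for all protein-coding genes with a peak (grey) and for the histone genes with a peak (red, n above each bar). A peak shared by a pair counts for both genes. The histone genes stood above all genes in every list, at 473 against 155 bp in DMSO replicate 1.

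The E-box was found in no member promoter, while the CCAAT box, the TATA box and the octamer were held by larger shares of members than of all promoters. The bases from 250 before to 50 after the TSS were searched on both strands for 4 motifs, none of which contains another. CACGTG, the E-box, was in 0 of 67 member promoters and in 8.74% of all promoters. CCAAT, the site of NF-Y, was in 55 of 67 (82.1%) against 35.9%, and TATAAA in 45 (67.2%) against 9.79%. The octamer ATTTGCAT was in 25 (37.3%) against 1.58%, namely in 12 of 17 H2A and 13 of 17 H2B promoters and in none of H1, H3 or H4. The searched stretches of the 2 genes of a head-to-head pair largely cover the same bases. A motif between their starts therefore counts for both genes, and these counts are not of separate motifs. Among the 9 members bound in DMSO the octamer was in 2, the pair H2BC12 and H2AC12, CCAAT in 8 and TATAAA in 5.

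A bound and an unbound H2B gene of the second chromosome 6 block have much the same promoter. The 250 bases before the TSS are printed 5′ to 3′ on the minus strand, the strand of both genes, with the motifs in capitals on either strand.
H2BC12, bound, chr6:27114635-27114884: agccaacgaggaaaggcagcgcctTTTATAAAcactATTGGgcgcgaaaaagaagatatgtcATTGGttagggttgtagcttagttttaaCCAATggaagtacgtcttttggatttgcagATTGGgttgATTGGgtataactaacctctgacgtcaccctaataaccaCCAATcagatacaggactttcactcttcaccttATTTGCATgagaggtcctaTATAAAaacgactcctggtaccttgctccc
H2BC11, no peak in any list, chr6:27100575-27100824: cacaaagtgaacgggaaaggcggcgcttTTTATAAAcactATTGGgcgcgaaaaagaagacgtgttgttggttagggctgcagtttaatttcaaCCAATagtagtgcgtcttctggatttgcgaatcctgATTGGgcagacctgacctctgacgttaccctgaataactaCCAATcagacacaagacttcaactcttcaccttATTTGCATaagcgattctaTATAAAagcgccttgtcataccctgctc

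They were 79.3% identical over their alignment (203 identical bases, 41 mismatches and 12 gap bases). Both hold ATTTGCAT and TATAAA, and CCAAT occurs 6 times in H2BC12 and 4 times in H2BC11 on both strands together. No peak summit of H2BC12 lay in the promoter printed here.

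E-boxes were found near some member summits. Within 100 bp of the summit, CACGTG was present in 2 of 8, 1 of 4 and 1 of 10 member peaks in the DMSO lists, and in 24.2%, 31.3% and 29% of all peaks of the same lists. With the compound it was present in 2 of 11, 0 of 1 and 0 of 9, against 26.7%, 45.4% and 28.3%. In IMR-32 it was present in 1 of 8 and 1 of 3, against 32.1% and 37.9%. The E-boxes nearest to the median summits of 4 sites are shown on the plus strand.
H2BC12 and H2AC12, chr6:27113812-27113841: tggtggaaagtaCACGTGacacaataggct
H4C4, chr6:26188875-26188904: ggagctactaaaCACGTGaaactacacttt
H2AC14 and H2BC14, chr6:27781895-27781924: aacccctgaaaaCACGTGttagcaaacgta
H4C11, chr6:27792355-27792384: aacacagcggcaCACGTGtggccattcacc

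The E-box at H2BC12 lay 27 bp from the median summit of the site that gave the pair its strongest peak in 5 N-MYC lists. The sites at H4C4 and at H2AC14 and H2BC14 gave the strongest peak in 1 list each, DMSO replicate 1, and that at H4C11 in 2, compound replicate 1 and IMR-32 replicate 1. The strongest member site, at H2AC15 and H2BC15, and the site with a peak in all 8 lists, at H2AC25 and H2BC26, held no CACGTG in the windows printed above.

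Histone genes have near-identical copies, and reads that match several places can be lost or misplaced. Within 1 kb of the TSS, the median member had 99.4% of its 75-base words found once in GRCh37. The exception was the block at 149.78 Mb of chromosome 1, where the share ran from 0 to 96.3% with a median of 23.7%, and was 0% at H4C14, H3C14, H3C15 and H4C15. Values of 0 bound genes in that block are therefore uncertain. In the first chromosome 6 block, where 1 of 31 genes was bound, the share was at least 96.4%. Among the 52 members with at least 90% of such words, 7 (13.5%) were bound in DMSO and 6 (11.5%) in IMR-32. The shares of all genes, not chosen by such words, were 37.6% and 15.2%. The part of repeated sequence in the member counts was not tested. H2BC13 and H2AC13, at 85.7%, were the bound members below 90%.

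**Figure D5:**
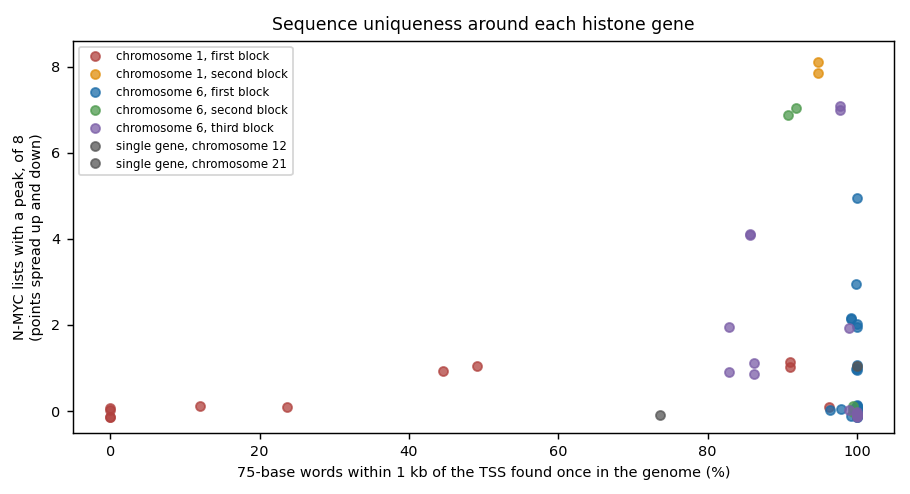
Number of N-MYC lists with a peak, of 8 (vertical axis, points spread up and down for legibility), against the percent of 75-base words within 1 kb of the TSS found once in the genome (horizontal axis), 1 point per member, coloured by block. Members near 100% span 0 to 7 lists, and the members under 50% are all in the first chromosome 1 block.

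Genes that work on these histones or their mRNAs were bound by N-MYC in a larger share than the members in every group. Of 15 genes of histone mRNA synthesis and 3′ end processing, N-MYC bound 11 (73.3%) in DMSO, 9 (60%) with the compound and 4 (26.7%) in IMR-32. The shares of all genes were 37.6%, 29.8% and 15.2%. WDR5 bound 3, 0 and 3 of the 15, against 8.24%, 1.29% and 4.74% of all genes. Both proteins were bound at 2, 0 and 1, against 7.5%, 1.17% and 2.55%. NPAT, the activator of the clusters, had N-MYC percentiles of 92, 51.9 and 88.7 in DMSO and of 21.6 and 57.8 in IMR-32. With the compound it had 95.8 and 75.3 in replicates 1 and 3 and no peak in replicate 2. HINFP, which activates H4 genes, had 90.5, 75.7 and 94.2 in DMSO and 90.4, 0.27 and 94.7 with the compound. In IMR-32 it had a peak in replicate 1 only, at 71.7, and was not bound. Both proteins were bound in DMSO at SLBP, the stem-loop binding protein of histone mRNA, with N-MYC percentiles of 91.2, 69.7 and 82.5 and WDR5 percentiles of 8.57, 60.2 and 32.8. They were also both bound at POU2F1, which encodes OCT-1, in DMSO and in IMR-32. WDR5 stood there at 10.1, 13.4 and 51.1 in DMSO and at 81.9 and 66.7 in IMR-32. NPAT and HINFP are named for their known roles, and neither was bound by WDR5.

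Of 20 histone chaperone and assembly genes, N-MYC bound 14 (70%) in DMSO, 11 with the compound and 9 in IMR-32. The shares of all genes were 37.6%, 29.8% and 15.2%. WDR5 bound 4, 2 and 3 of the 20, against 8.24%, 1.29% and 4.74% of all genes. Both proteins were bound at 3, 2 and 3, against 7.5%, 1.17% and 2.55%. UBN1, a subunit of the HIRA chaperone complex for H3.3, had both proteins in all 3 groups. Its N-MYC percentiles were 92.7, 92.7 and 99 in DMSO, and its WDR5 percentiles 83.1, 82.1 and 34.2. CHAF1A, the large subunit of CAF-1, and RBBP4, a histone-binding subunit of CAF-1, had both in DMSO. NAP1L1, a chaperone of H2A and H2B, and SSRP1, a subunit of FACT, had both in IMR-32, and ASF1A, a chaperone of H3 and H4, had both with the compound.

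Of 12 replication-independent histone genes, whose variants are made outside S phase too, N-MYC bound 7 (58.3%) in DMSO, 7 with the compound and 5 in IMR-32. The shares of all genes were 37.6%, 29.8% and 15.2%. WDR5 bound 1, 0 and 1 of the 12, against 8.24%, 1.29% and 4.74% of all genes. Both proteins were also bound at 1, 0 and 1, against 7.5%, 1.17% and 2.55%, so the DMSO share (8.33%) was near that of all genes. The 1 gene with both in DMSO was H3-3A, with N-MYC percentiles of 83.3, 86.9 and 93.8 and WDR5 at 68.7 and 57.7 in replicates 1 and 3. In IMR-32 both were bound at H3-3B, which encodes the same H3.3 protein, with WDR5 at 11.5 and 14.1.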

How the data were processed

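Reads were trimmed (Cutadapt) and placed on hg19 (Bowtie2) by the authors, whose peak calls came from MACS2, library by library, at a q-value of 0.05. Versions and the control library are not given in the sources used here. The deposited lists hold each peak's fold, a ratio over local background, its −log10 p-value and q-value, a score derived from the q-value and the summit. The fold was ranked within its list, q-values filtered peaks, and p-values and scores were not used. No read totals are given, so depth is unknown and no interval could be given.

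The strongest peak within 1000 bp of any TSS of basic GENCODE 44 transcripts stood for a gene, with peaks in 2 libraries, at any place within that distance, as the criterion of binding. The study's consensus rule also needs 2 replicates but works on peaks, so overlapping peaks were an added alternative. Comparisons set genes with no peak to 0. Libraries are called independent repeats in the study's methods. Same-numbered N-MYC deviations from group means correlated at 0.427, 0.337 and 0.447 over 10109 genes with a peak, so numbers pair these libraries; for WDR5 the values were 0.0721, 0.0615 and 0.0839. The pairing comes from the data, with replicate numbers from the labels. Python 3.11.15, pandas 2.3.3 and pysam 0.24.0 were used, and the counting was tested on simulated data. Members, lists and tests were chosen with earlier results of these data known. Genes named with values were the 3 members per block with the highest mean N-MYC percentile in DMSO, members whose libraries did not overlap, members outside the blocks and list genes with both proteins; H4C8, NPAT, HINFP, BOLA1, HFE, TRIM38 and members with WDR5 peaks or E-boxes were named after their values were seen. Alternatives were the distance to a TSS, summits, 1 TSS per gene, stricter q-values, lists of equal length, the rank used, the number of libraries and leaving out each library.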

Additional observations from a re-analysis of the deposited data

How the results depend on the processing

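Of 215 values recomputed under other settings, 175 stayed within 1.5 times a count or 1 SD of a median, of which 102 were counts of 0 that stayed 0. With overlapping peaks required, an alternative chosen after seeing the data, each count of bound members was as before. With lists of equal length (2964 N-MYC peaks), N-MYC counts went from 9 to 0 members in DMSO, from 9 to 2 with the compound and from 6 to 2 in IMR-32, the DMSO median to 40.2, and members lower in IMR-32 from 2 to 0. With a peak in at least 1 library, counts were 19, 20 and 12 for N-MYC, 7, 8 and 3 for WDR5, and 3 and 5 for both proteins in the CHP-134 groups. With all 3 libraries, 2 members were bound with the compound. In IMR-32, N-MYC bound 2 members within 500 bp and 3 at a −log10 q of at least 5.

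Ranked by −log10 q, the DMSO N-MYC median was 40.8. The WDR5 medians each rest on 1 library. In DMSO the median was 64, and it was 65.1 within 500 bp, within 2 kb or by summit, 41.2 at the stricter q, 38.7 by −log10 q and 62.1 against promoter peaks. With the compound it was 50.1, then 40.8 within 2 kb, 61 at the stricter q, 53.8 by −log10 q and 52.6 against promoter peaks. In IMR-32 it was 5.58, then 15.5 within 500 bp, 1.68 by −log10 q and 2.28 against promoter peaks.

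Without replicate 1 or replicate 2 the IMR-32 N-MYC median, 53.2, became 76.9 or 29.4. Leaving out 1 library gave 2 to 9 bound members with the compound (2 without replicate 1 or replicate 3), 0 to 4 members lower with the compound (4 without compound replicate 1, 1 without compound replicate 3, 1 and 2 without DMSO replicate 1 and 2) and 2 to 4 lower in IMR-32 (4 without IMR-32 replicate 2 or DMSO replicate 2). Leaving genes with no peak out gave 1 member lower with the compound. With the replicate block, 3 members were lower for N-MYC and 0 for WDR5, where no other count was possible. WDR5 replicate numbers were not found to pair the libraries, though every WDR5 library correlated best with its own number. IMR-32 counts of bound genes without 1 library could not be given, since 1 library is left. The cause of these changes was not tested beyond the shorter lists and fewer libraries the settings themselves make.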
